A study of Mus musculus with 22 samples.

Results

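The effect of losing Ezh2 on gene expression in mouse embryonic stem cells was compared between LIF medium with the 2i inhibitors and LIF medium without them. For each gene, the knockout change with 2i minus the knockout change without 2i, on the log2 scale, is its knockout by medium interaction. A positive value means that the change from wild type to knockout was higher with 2i. The comparison took every library of 5 groups, 12 of the 22 libraries of the series, chosen by their titles. There are 2 sets of wild-type cells without 2i, so the interaction was computed with each, and a gene agrees when both interactions were called with the same sign. The series concerns EZH2, its complex and primitive endoderm identity, and measured RNA by sequencing.

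All 5 groups are embryonic stem cells labelled as the mouse line E14. KO10_S2iL (n = 2) is clone 10 of the Ezh2 knockout in medium with LIF and 2i, and TG2A_S2iL (n = 2) is wild type in the same medium. KO10_SL (n = 3) is clone 10 in LIF medium. TG2A_ESC (n = 2) and E14_ESC (n = 3) are both wild type in LIF medium, and the titles give TG2A_ESC the same cell name, TG2A.NG.PB, as TG2A_S2iL. The count table names the columns of the 2i wild type TGNP.S2iL, which was read as that cell name, and every interaction rests on this reading. The design text describes both media as containing serum. The labels spell the genotype "Eeh2-null", which was read as Ezh2. The knockout is 1 clone, and the labels do not say which wild type is its parent or that replicates are separate cultures. The p-values therefore measure the spread between replicate libraries, which may be technical. That spread was estimated over all 22 libraries of the series in 10 groups, not from the 12 compared libraries alone.

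EZH2 is the main catalytic subunit of Polycomb repressive complex PRC2, which methylates histone H3 at lysine 27 over many developmental genes and helps to keep them silent. The 2i inhibitors block MEK and GSK3, which lowers ERK signalling, raises Wnt pathway output and holds embryonic stem cells in a naive state. Primitive endoderm is the extraembryonic layer that lines the epiblast of the blastocyst, its specification depends on FGF and ERK signalling, and GATA6, GATA4 and SOX17 are transcription factors that mark it.

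The libraries held 16.2 to 26.3 M estimated counts, and replicates correlated at 0.979 to 0.991 (Pearson's r across genes). Ezh2 had 6 and 0 counts in KO10_S2iL, against 3697 and 3663 in TG2A_S2iL. It had 2, 1 and 1 counts in KO10_SL, against 3727 and 3811 in TG2A_ESC and 2894, 3027 and 4941 in E14_ESC, so every library matched its genotype label. Stem cell markers were abundant in all groups, and 5 of them summed to 2697 to 2711 CPM in KO10_S2iL, 3120 to 3164 in TG2A_S2iL, 3387 to 3536 in KO10_SL, 3463 to 4354 in TG2A_ESC and 3098 to 3222 in E14_ESC. In contrast, 5 primitive endoderm markers summed to 31.5 to 36.1 CPM in KO10_S2iL, 4.5 to 5.46 in TG2A_S2iL, 115 to 145 in KO10_SL, 10.5 to 29 in TG2A_ESC and 2.61 to 4.19 in E14_ESC. The TG2A_ESC libraries were unequal in these markers, and both lay above every E14_ESC library. Of the other cell types that could be present, 3 trophoblast markers summed to 9.05 to 9.11 CPM in KO10_S2iL, 0.701 to 1.44 in TG2A_S2iL, 1.84 to 2.93 in KO10_SL, 0.157 to 0.937 in TG2A_ESC and 0.598 to 1.14 in E14_ESC, and 7 fibroblast markers summed to 33.3 to 35 CPM in KO10_S2iL, 7.38 to 8.58 in TG2A_S2iL, 28.3 to 31.4 in KO10_SL, 3.25 to 13.2 in TG2A_ESC and 11.9 to 14.6 in E14_ESC, with Dcn at 0 in all of these libraries except 1 TG2A_ESC library. Col3a1, Postn and Lum were also at 0 in some of these libraries. Of 17 fibroblast genes tested, none agreed, against 1.74% of all genes, and 9 had a group at or under 3 counts. The sum of 4 macrophage markers lay from 4.07 to 12.8 CPM over all these libraries. The part of these markers in the interactions was not tested. In bulk libraries, fewer cells of a type and less RNA per cell cannot be told apart.

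Of 17547 genes tested, the interaction with TG2A_ESC was called positive for 147 genes (0.838%) and negative for 196 genes (1.12%), by edgeR's quasi-likelihood test at a Benjamini-Hochberg adjusted p below 0.05. With E14_ESC it was called positive for 2201 genes (12.5%) and negative for 2356 genes (13.4%). Both interactions share the KO10_S2iL, TG2A_S2iL and KO10_SL libraries, and they differ for each gene by E14_ESC minus TG2A_ESC, a comparison of wild types in which 4270 genes (24.3%) were called. A total of 306 genes agreed (1.74% of genes tested), 128 with a positive interaction (0.729% of genes tested) and 178 with a negative one (1.01%). They are 89.2% of the genes called with TG2A_ESC and 6.71% of those called with E14_ESC, and 1 gene was called in both with opposite signs.

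The balance of directions depended on the processing and on single libraries. Positive genes were 41.8% of the agreeing genes under TMM scaling, and 56.4% under RLE scaling (164 positive and 127 negative). With TMM kept, they were 56% with no filter on low counts, 54.6% with a minimum of 1 CPM in a group and 53.9% when the 12 libraries were fitted alone. They were 57.1% and 57.6% without KO10_S2iL replicate 1 or 2, and 52.1%, 50.8% and 50.7% without KO10_SL replicate 1, KO10_SL replicate 3 or TG2A_ESC replicate 2. DESeq2 gave 53.8%. The median interaction over all genes was 0.01 with TG2A_ESC and 0.07 with E14_ESC under TMM, against 0.06 and 0.12 under RLE. Single libraries also moved the count. Without KO10_S2iL replicate 1 or 2, 70 or 59 genes agreed, and without TG2A_S2iL replicate 1 or 2, 57 or 59. Without KO10_SL replicate 1, 2 or 3, 215, 135 or 128 agreed. A group left with a lone library is assumed to vary like the others. Of the 306 genes, 37 agreed in all 12 fits that each left out 1 library, and 19 of these were positive and 18 negative.

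**Figure D1:**
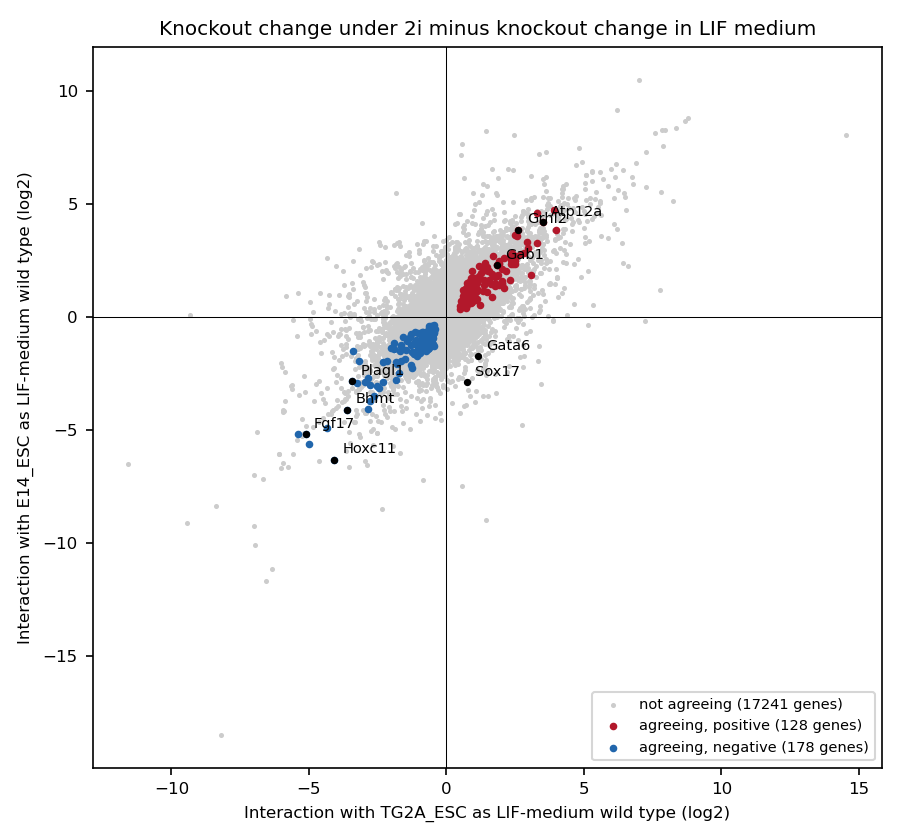
Interaction of each tested gene (log2) with TG2A_ESC on the x axis and with E14_ESC on the y axis. Agreeing genes are coloured by sign, 128 positive and 178 negative, and lie in the upper right and lower left, and named genes are black; the axes share 3 of their groups.

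The interaction moved with gene length. By eighths of exonic length, its median was -0.19 in the shortest genes and 0.18 in the longest with TG2A_ESC, and -0.54 and 0.58 with E14_ESC. In log2 expression relative to the mean of the libraries, the longest eighth less the shortest was -0.03 to 0.07 in KO10_S2iL, -0.12 to -0.04 in TG2A_S2iL, -0.80 to -0.60 in KO10_SL, -0.50 to -0.44 in TG2A_ESC and 0.01 to 0.35 in E14_ESC. Positive agreeing genes had a median exonic length of 7119 bases and negative ones 2872, against 3914 over all genes tested. With the length trend removed from each library, an alternative chosen after seeing the data, 78 positive and 113 negative genes agreed (0.445% and 0.644% of genes tested), and 72 and 99 of these were among the original ones. The part of length in the result for any single gene was not tested.

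**Figure D2:**
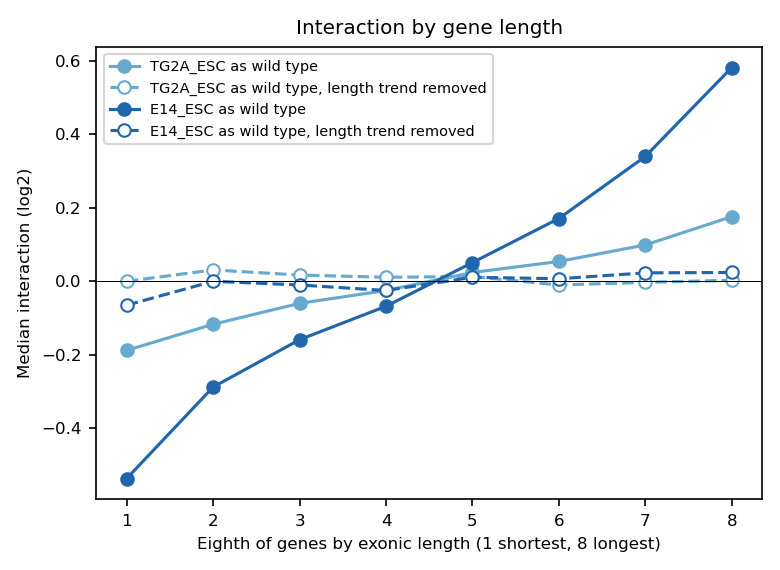
Median interaction (log2) by eighth of exonic length, for both wild types, before and after the length trend was removed. Before removal the medians climb from the shortest genes to the longest, from -0.54 to 0.58 with E14_ESC, and after removal they stay near 0.

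The first set of agreeing genes was higher without Ezh2 in LIF medium, and less so or not with 2i. Here and in the sets that follow, a knockout change that differs between the media is fixed by the choice of genes, so its values are a description. Of the 178 negative genes, 79 rose in KO10_SL against both wild types. With 2i, the knockout change of these was not called for 55, was a fall for 15 and was a rise for 9. Over all 17547 genes tested, 1826 rose in KO10_SL against both wild types. Taken singly, 2381 genes (13.6%) rose in KO10_SL against TG2A_ESC and 4534 genes (25.8%) against E14_ESC. With 2i, 2754 genes (15.7%) rose in KO10_S2iL. The series also holds 2 libraries of clone 10 with Ezh2 put back in LIF medium, which the interaction does not use. Ezh2 was at 495 and 533 CPM in them, above the 194 and 200 CPM in TG2A_ESC and the 173, 181 and 184 CPM in E14_ESC. Both libraries with Ezh2 put back lay below all 3 KO10_SL libraries for 78 of the 79 genes (98.7%), near the 98.4% over all genes that rose in KO10_SL against both.

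Within this set, 35 genes rose on loss of Ezh2 in LIF medium and also rose in wild type with 2i, each against both wild types. These changes share the wild-type libraries in LIF medium. Over all genes, 264 (1.5%) rose with both changes against both wild types, and 229 of these did not agree. Singly, 2055 genes (11.7%) rose in TG2A_S2iL against TG2A_ESC and 1577 genes (8.99%) against E14_ESC. The 35 were chosen for a rise in KO10_SL and a negative interaction, so a smaller knockout change with 2i follows from the choice. Their median log2 knockout change was 0.07 with 2i (-1.12 to 1.49). Without 2i it was 1.59 against TG2A_ESC and 1.5 against E14_ESC, and their median change with 2i in wild type was 1.69 against TG2A_ESC. With 2i the knockout change was not called for 29, a rise for 5 and a fall for 1. With the length trend removed 26 still agreed, and 11 agreed in all 12 fits that left out 1 library.

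Bhmt and Dmgdh lie close together and are both among the 35. Bhmt encodes betaine-homocysteine methyltransferase, which makes methionine from homocysteine with betaine as the methyl donor, and Dmgdh encodes the dehydrogenase that breaks down the dimethylglycine this leaves. Bhmt lies at chr13:93616675-93637961 on the minus strand and Dmgdh at chr13:93674433-93752833 on the plus strand (build GRCm38), 36472 bases apart. Ctsc, the lysosomal protease cathepsin C, and Rab38, a small GTPase of lysosome-related organelles, form another such pair, 119385 bases apart on chromosome 7. Ctsc agreed in 3 and Rab38 in 6 of the 12 fits that left out 1 library. Both pairs were picked from 22 pairs of agreeing genes within 200 kb, of which 17 shared a sign and 5 had opposite signs. In each picked pair, 1 tested gene that did not agree starts between the members. Whether neighbours moved together more than other genes was not tested. The 250 bases before the RefSeq start of Bhmt, Dmgdh and Ctsc are shown because these neighbours moved together; Gab1, described later, moved in the other direction. The starts are those of RefSeq, which can differ from the gene ends given above, so the Bhmt and Dmgdh windows reach into the genes as placed there. They are RefSeq sequence (GRCm38.p6), 5′ to 3′ on the gene's strand, with each CG dinucleotide, the site of CpG methylation, in capitals. 
Bhmt, chr13:93637759-93638008, minus strand: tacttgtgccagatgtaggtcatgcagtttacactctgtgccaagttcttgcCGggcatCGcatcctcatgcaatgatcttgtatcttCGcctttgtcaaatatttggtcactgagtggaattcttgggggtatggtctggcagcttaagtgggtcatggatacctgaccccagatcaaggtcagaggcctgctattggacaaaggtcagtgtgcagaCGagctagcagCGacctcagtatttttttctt
Dmgdh, chr13:93674186-93674435, plus strand: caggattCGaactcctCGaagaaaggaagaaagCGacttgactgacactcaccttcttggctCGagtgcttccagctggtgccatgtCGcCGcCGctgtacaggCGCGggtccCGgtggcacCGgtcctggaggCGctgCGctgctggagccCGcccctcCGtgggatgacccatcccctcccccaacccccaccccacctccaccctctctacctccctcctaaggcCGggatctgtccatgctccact
Ctsc, chr7:88277835-88278084, plus strand: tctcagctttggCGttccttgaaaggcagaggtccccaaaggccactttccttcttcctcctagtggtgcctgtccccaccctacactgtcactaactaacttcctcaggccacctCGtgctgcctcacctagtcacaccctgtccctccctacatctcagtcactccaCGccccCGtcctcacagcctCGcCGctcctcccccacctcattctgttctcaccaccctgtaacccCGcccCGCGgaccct
Gab1, chr8:80880520-80880769, minus strand: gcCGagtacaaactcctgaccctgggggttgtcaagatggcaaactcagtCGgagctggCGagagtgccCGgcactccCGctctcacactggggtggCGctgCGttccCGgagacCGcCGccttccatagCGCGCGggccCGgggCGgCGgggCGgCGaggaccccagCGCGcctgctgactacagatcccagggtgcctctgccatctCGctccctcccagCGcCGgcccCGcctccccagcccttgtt

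The windows hold 5 CG dinucleotides for Bhmt, 16 for Dmgdh, 9 for Ctsc and 24 for Gab1. Over 15817 windows of tested genes the median is 14, with quartiles of 7 and 22, and 98.4% hold at least 1. At least as many as in Bhmt are in 82.9% of windows, as in Dmgdh in 45.3%, as in Ctsc in 69.1% and as in Gab1 in 20.9%. Bhmt and Dmgdh, which moved together, lie on opposite sides of the median.

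Bhmt measured 29.3 and 31.5 CPM in KO10_S2iL, against 22.1 and 24.8 in TG2A_S2iL. In LIF medium Bhmt was at 33.1, 16 and 20.2 CPM in KO10_SL, against 0.676 and 2.25 in TG2A_ESC and 1.26, 0.777 and 1.05 in E14_ESC. The wild types in LIF medium were low, and every other library was above all 5 of them. The interaction of Bhmt was -3.6 ± 0.58 with TG2A_ESC and -4.11 ± 0.55 with E14_ESC (log2 ± SE). If the changes from knockout and from 2i multiplied, KO10_S2iL would be at 370 CPM from the TG2A_ESC level or 528 CPM from the E14_ESC level, against a measured mean of 30.4 ± 1.52 CPM (SD, n = 2).

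Dmgdh measured 29.5 and 28.3 CPM in KO10_S2iL, against 35 and 30.2 in TG2A_S2iL. In LIF medium Dmgdh was at 15.6, 8.87 and 9.54 CPM in KO10_SL, against 1.14 and 2.36 in TG2A_ESC and 0.599, 0.717 and 0.896 in E14_ESC. The knockout was slightly below wild type with 2i and above it without 2i, with no overlap in either medium. The interaction of Dmgdh was -2.86 ± 0.39 with TG2A_ESC and -4.07 ± 0.38 with E14_ESC, and the knockout change with 2i, -0.18 ± 0.25, was not called. With Ezh2 put back in LIF medium, Bhmt was at 0.887 and 0.536 CPM and Dmgdh at 1.11 and 0.964 CPM, below every KO10_SL library. Both genes agreed in all 12 fits that left out 1 library and with the length trend removed.

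Transcription factors are among the 35. Elf3, an epithelial ETS factor, averaged 212 CPM in KO10_S2iL, 169 in TG2A_S2iL, 160 in KO10_SL, 31.4 in TG2A_ESC and 48.4 in E14_ESC. Its KO10_S2iL level compares with 862 and 560 CPM if the changes multiplied from TG2A_ESC and E14_ESC. Meis2, a homeodomain factor, averaged 15.5 CPM in KO10_S2iL, 17.5 in TG2A_S2iL, 17.9 in KO10_SL, 2.93 in TG2A_ESC and 1.53 in E14_ESC, and lay above both wild types in LIF medium in every library of the other groups. Hoxc11, a Hox factor, had 115 counts in KO10_S2iL, 54 in TG2A_S2iL, 250 in KO10_SL, 4 in TG2A_ESC and 1 in E14_ESC, summed over replicates. Its fitted interaction depends on the prior count and is no measure of a fold.

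Lysosomal, lipid and transport genes also belong to the 35. Ctsc averaged 56.5 CPM in KO10_S2iL, 64.7 in TG2A_S2iL, 25.8 in KO10_SL, 5.95 in TG2A_ESC and 7.25 in E14_ESC. Rab38 averaged 5.24 CPM in KO10_S2iL, 11.4 in TG2A_S2iL, 4.19 in KO10_SL, 1.18 in TG2A_ESC and 1.25 in E14_ESC. Both were highest in TG2A_S2iL. Cidea, a lipid droplet protein, averaged 12.5 CPM in KO10_S2iL, 6.83 in TG2A_S2iL, 10.5 in KO10_SL, 0.836 in TG2A_ESC and 0.735 in E14_ESC. The interaction of Cidea with the length trend removed was -2.58 with TG2A_ESC, against -2.78 before, and no longer called, and -2.58 with E14_ESC, against -3.01 before, and still called. Slco2a1, a prostaglandin transporter, averaged 20.3 CPM in KO10_S2iL, 7.23 in TG2A_S2iL, 29.4 in KO10_SL, 1.7 in TG2A_ESC and 0.909 in E14_ESC, and rose without Ezh2 in both media.

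**Figure D3:**
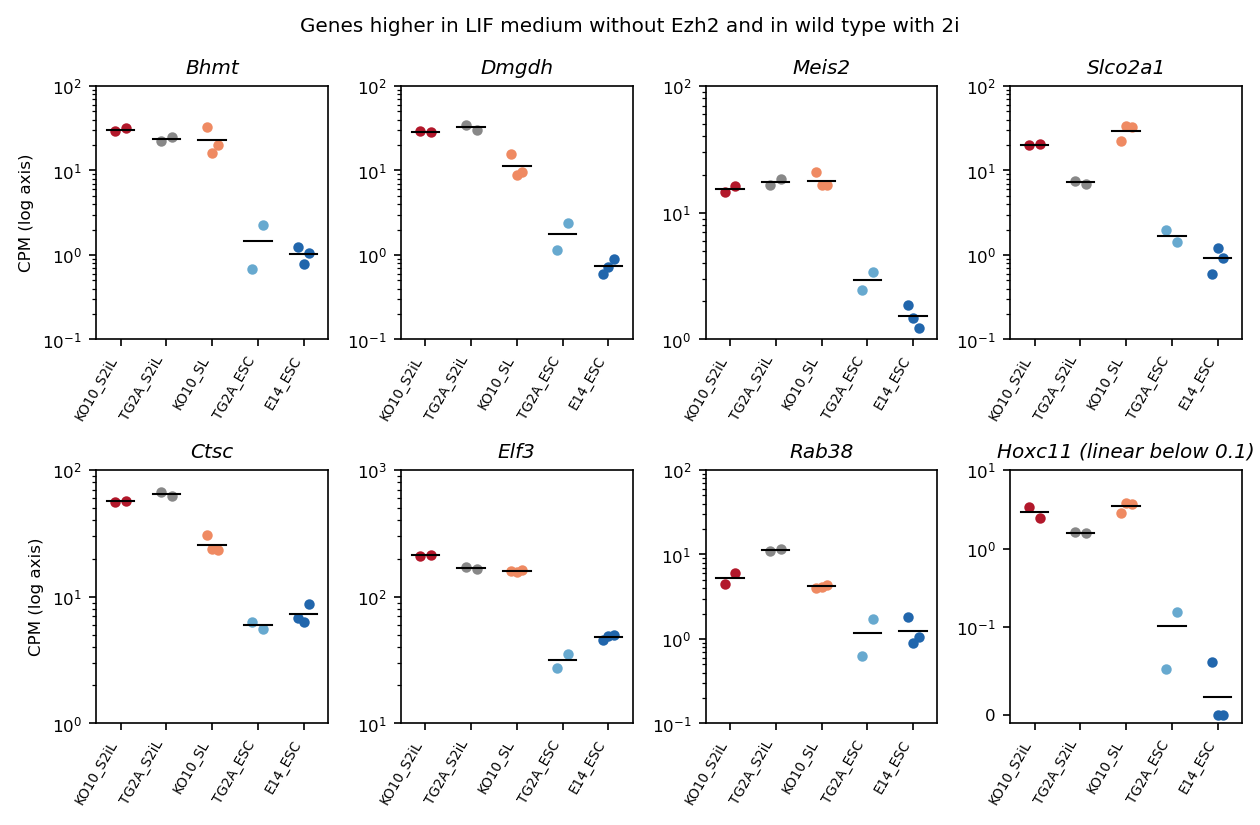
Expression (CPM, log axis) of 8 genes raised in LIF medium by knockout and by 2i in wild type, with 1 point per library and a line at each group mean; the Hoxc11 axis is linear below 0.1. The TG2A_ESC and E14_ESC libraries are the low ones in every panel.

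Klb, Clu and Flrt3 rose in KO10_SL against both wild types and had no called knockout change with 2i. Klb, the FGF co-receptor beta-Klotho, measured 1.91 and 1.4 CPM in KO10_S2iL, against 3.72 and 3.85 in TG2A_S2iL. In LIF medium Klb was at 21.1, 17.4 and 19.2 CPM in KO10_SL, against 0.52 and 2.25 in TG2A_ESC and 0.779, 0.837 and 1.01 in E14_ESC. The KO10_SL libraries stood apart from all others, and the interaction of Klb was -4.98 ± 1.02 with TG2A_ESC and -5.61 ± 0.99 with E14_ESC. Clu, the secreted chaperone clusterin, averaged 15.7 CPM in KO10_S2iL, 15.8 in TG2A_S2iL, 61.2 in KO10_SL, 8.51 in TG2A_ESC and 9.48 in E14_ESC. Flrt3, a membrane protein that binds FGF receptors, averaged 4.95 CPM in KO10_S2iL, 5.98 in TG2A_S2iL, 21.5 in KO10_SL, 5.2 in TG2A_ESC and 3.56 in E14_ESC, and agreed whichever library was left out.

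Most other negative genes were lower without Ezh2 with 2i. In this set 98 genes fell in KO10_S2iL and did not rise in KO10_SL against both wild types, against 2509 genes (14.3%) that fell in KO10_S2iL overall. In LIF medium 32 of them were called against neither wild type, and with the length trend removed 48 still agreed. Fgf17, an FGF ligand, measured 0.101 and 0.155 CPM in KO10_S2iL, against 11.4 and 12.4 in TG2A_S2iL. In LIF medium Fgf17 was at 6.66, 7.81 and 8.18 CPM in KO10_SL, against 19 and 19.4 in TG2A_ESC and 19.6, 18.6 and 16.9 in E14_ESC. The knockout was below wild type in both media without overlap, and lowest with 2i. Its interaction was -5.12 ± 0.7 with TG2A_ESC and -5.19 ± 0.67 with E14_ESC, with 5 counts in all in KO10_S2iL.

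Plagl1, an imprinted zinc finger factor, measured 7.35 and 8.68 CPM in KO10_S2iL, against 60.6 and 62.2 in TG2A_S2iL. In LIF medium Plagl1 was at 1.02, 0.654 and 0.551 CPM in KO10_SL, against 0.781 and 0.262 in TG2A_ESC and 0.419, 0.658 and 1.19 in E14_ESC. With 2i the knockout lay well below wild type, and without 2i the groups overlapped near 1 CPM. The interaction of Plagl1 was -3.44 ± 0.77 with TG2A_ESC and -2.84 ± 0.7 with E14_ESC, and it agreed in 4 of the 12 fits that left out 1 library. Tmem88, a membrane protein that binds Dishevelled and dampens Wnt signalling, averaged 0.71 CPM in KO10_S2iL, 4.7 in TG2A_S2iL, 11.6 in KO10_SL, 13.3 in TG2A_ESC and 8.96 in E14_ESC. Its exons overlap Naa38, and without a stated strand setting their reads cannot be told apart.

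Positive genes made up a set lower without Ezh2 in LIF medium and a set higher without Ezh2 with 2i. In the first, 75 of 128 fell in KO10_SL against both wild types, and for 48 of these the change with 2i was not called. Over all 17547 genes tested, 1809 fell in KO10_SL against both wild types. Taken singly, 2482 genes (14.1%) fell in KO10_SL against TG2A_ESC and 3990 genes (22.7%) against E14_ESC. The libraries with Ezh2 put back lay above all 3 KO10_SL libraries for 71 of the 75 (94.7%), against 98% over all genes that fell against both. With the length trend removed, 19 of the 48 still agreed.

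Gab1, an adaptor of receptor tyrosine kinases that is imprinted in mouse, measured 178 and 184 CPM in KO10_S2iL, against 288 and 287 in TG2A_S2iL. In LIF medium Gab1 was at 41.1, 44.6 and 44 CPM in KO10_SL, against 249 and 240 in TG2A_ESC and 349, 334 and 314 in E14_ESC. The knockout was below wild type in both media without overlap, and lowest in LIF medium. The log2 knockout change was -0.66 ± 0.09 with 2i, against -2.5 ± 0.08 without it from TG2A_ESC and -2.94 ± 0.08 from E14_ESC. Its interaction was 1.83 ± 0.12 with TG2A_ESC and 2.28 ± 0.12 with E14_ESC (edgeR quasi-likelihood, Benjamini-Hochberg adjusted p = 6.85e-07 and 1.39e-08). With Ezh2 put back it was at 367 and 383 CPM, and it agreed in all 12 fits that left out 1 library.

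Lncenc1, a long noncoding RNA of naive stem cells, measured 354 and 346 CPM in KO10_S2iL, against 301 and 303 in TG2A_S2iL. In LIF medium Lncenc1 was at 32.1, 30.9 and 30.4 CPM in KO10_SL, against 232 and 72.6 in TG2A_ESC and 345, 336 and 323 in E14_ESC. KO10_SL stood below every other library, the TG2A_ESC libraries were unequal, and the knockout with 2i was slightly above wild type, by a change of 0.21 ± 0.34 that was not called. Its interaction was 2.5 ± 0.46 with TG2A_ESC and 3.64 ± 0.46 with E14_ESC. Kndc1, a gene with a kinase-like domain, averaged 2.93 CPM in KO10_S2iL, 3.2 in TG2A_S2iL, 3.88 in KO10_SL, 13.6 in TG2A_ESC and 27.7 in E14_ESC. It was lower in KO10_SL and in TG2A_S2iL than in both wild types in LIF medium. The interaction of Kndc1 with the length trend removed was 1.52 with TG2A_ESC, against 1.68 before, and no longer called, and 2.22 with E14_ESC, against 2.71 before, and still called.

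In the second positive set, 53 genes rose in KO10_S2iL and did not fall in KO10_SL against both wild types. Over all genes, 2754 (15.7%) rose in KO10_S2iL. Of the 53, 22 were called against neither wild type in LIF medium and 8 rose against both, and with the length trend removed 33 still agreed. Atp12a, the nongastric proton and potassium ATPase, measured 12 and 10.4 CPM in KO10_S2iL, against 0.78 and 0.292 in TG2A_S2iL. In LIF medium Atp12a was at 1.14, 2.08 and 1.48 CPM in KO10_SL, against 1.25 and 0.472 in TG2A_ESC and 1.92, 1.26 and 0.97 in E14_ESC. The KO10_S2iL libraries stood far above the rest. Its interaction was 3.51 ± 0.83 with TG2A_ESC and 4.17 ± 0.78 with E14_ESC, and it agreed in 3 of the 12 fits that left out 1 library. Dmkn, the epidermal protein dermokine, averaged 16.5 CPM in KO10_S2iL, 0.208 in TG2A_S2iL, 3.65 in KO10_SL, 0.392 in TG2A_ESC and 0.162 in E14_ESC, and rose without Ezh2 in both media. Pam, the peptide-amidating enzyme, averaged 41.3 ± 0.469 CPM in KO10_S2iL, 5.35 ± 0.608 in TG2A_S2iL, 13.3 ± 0.835 in KO10_SL, 6.19 ± 1.19 in TG2A_ESC and 8.34 ± 0.8 in E14_ESC (SD, n = 2 or 3). It rose by 2.95 ± 0.2 with 2i and by 1.11 ± 0.18 without 2i against TG2A_ESC.

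Several genes of this set were lower in wild type with 2i than in both wild types without it. Eif4g3, a scaffold of translation initiation, averaged 80.8 CPM in KO10_S2iL, 20.1 in TG2A_S2iL, 45.9 in KO10_SL, 43.5 in TG2A_ESC and 59.4 in E14_ESC. Cntn2, an adhesion protein of axons, averaged 29.9 CPM in KO10_S2iL, 5.27 in TG2A_S2iL, 11.8 in KO10_SL, 10.7 in TG2A_ESC and 12.1 in E14_ESC. In both, KO10_S2iL was above TG2A_S2iL by a called change, and the change of TG2A_S2iL from each wild type in LIF medium was a called fall. Cgnl1, a junction protein, averaged 23 CPM in KO10_S2iL, 6.16 in TG2A_S2iL, 45.1 in KO10_SL, 44.4 in TG2A_ESC and 43.7 in E14_ESC. The interaction of Cgnl1 with the length trend removed was 1.78 with TG2A_ESC, against 1.88 before, and no longer called, and 1.51 with E14_ESC, against 1.85 before, and still called.

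For 34 agreeing genes the knockout change was called in opposite directions in the media, against both wild types. It was a rise with 2i and a fall without it for 19, and the reverse for 15, and 25 of the 34 still agreed after removal of the length trend. How many of all genes tested had such opposite calls was not counted, so the 34 are a description. Singly, 15.7% of all genes rose and 14.3% fell in KO10_S2iL. In KO10_SL, 13.6% rose and 14.1% fell against TG2A_ESC, and 25.8% rose and 22.7% fell against E14_ESC. Grhl2, an epithelial transcription factor, measured 16.9 and 13.8 CPM in KO10_S2iL, against 7.26 and 6.83 in TG2A_S2iL. In LIF medium Grhl2 was at 5.81, 5.97 and 7.0 CPM in KO10_SL, against 25.6 and 9.85 in TG2A_ESC and 37, 40.2 and 48.2 in E14_ESC. The knockout was above wild type with 2i and below both wild types without it, with no overlap. Its interaction was 2.62 ± 0.49 with TG2A_ESC and 3.86 ± 0.48 with E14_ESC. Arhgef28, a guanine nucleotide exchange factor that also rose with 2i and fell without it, averaged 4.44 CPM in KO10_S2iL, 1.78 in TG2A_S2iL, 5.8 in KO10_SL, 8.88 in TG2A_ESC and 12.8 in E14_ESC. Zfp629, a zinc finger gene, averaged 1.63 CPM in KO10_S2iL, 0.622 in TG2A_S2iL, 0.96 in KO10_SL, 2.61 in TG2A_ESC and 2.59 in E14_ESC. Mctp2, a membrane protein with C2 domains, averaged 4.7 CPM in KO10_S2iL, 2.17 in TG2A_S2iL, 3.5 in KO10_SL, 8.72 in TG2A_ESC and 8.09 in E14_ESC. The predicted genes Gm48914 and Gm44660 had interactions with TG2A_ESC of 3.92 ± 0.63 and 2.34 ± 0.45. Gm48914 had 9 counts in KO10_SL and 26 in TG2A_ESC, summed over replicates.

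**Figure D4:**
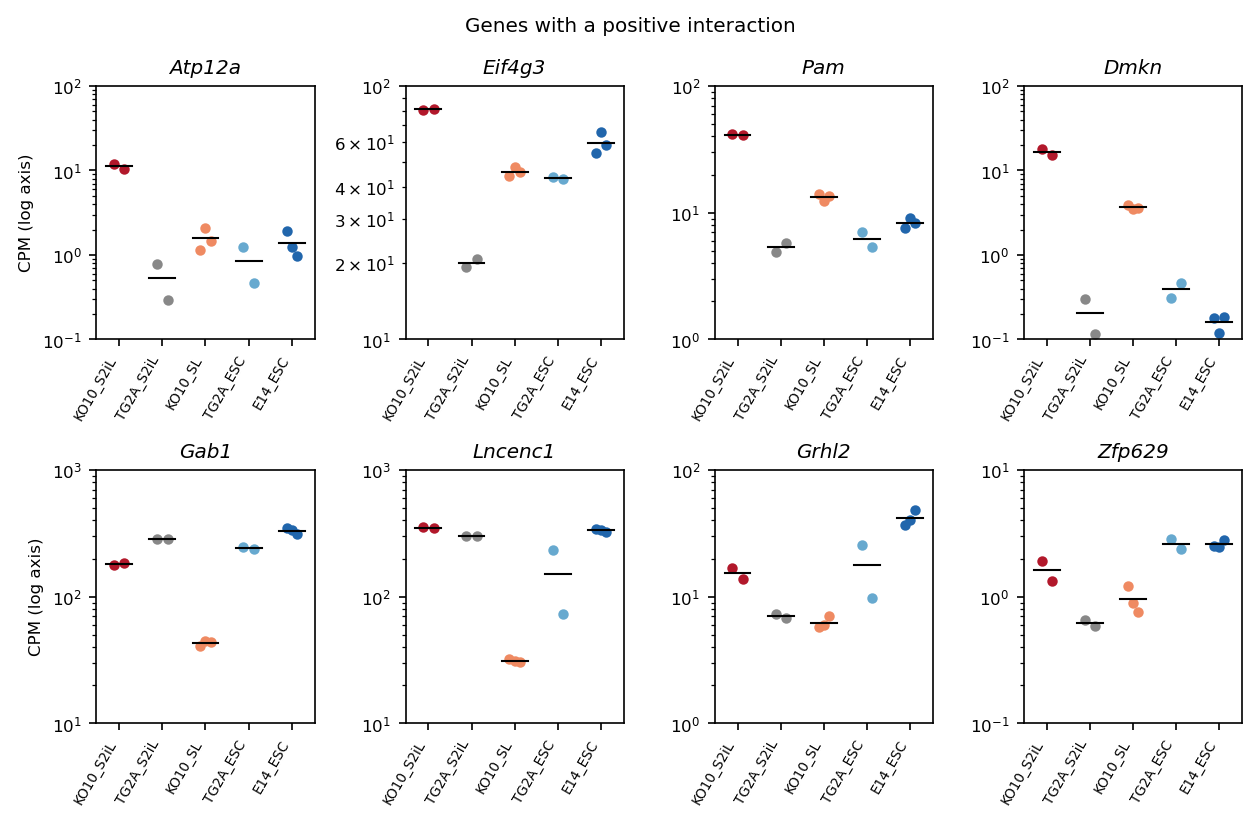
Expression (CPM, log axis) of 8 genes with a positive interaction, with 1 point per library and a line at each group mean. KO10_S2iL is high for Atp12a, Eif4g3, Pam and Dmkn, and KO10_SL is low for Gab1, Lncenc1, Grhl2 and Zfp629 relative to the wild types in LIF medium; for Zfp629 the TG2A_S2iL libraries are lower still.

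Loss of Ezh2 raised the primitive endoderm factors Gata6, Sox17 and Gata4 in both media, and their interactions differed with the wild type used. Gata6, a transcription factor that specifies primitive endoderm, measured 14.5 and 18.2 CPM in KO10_S2iL, against 1.74 and 1.34 in TG2A_S2iL. In LIF medium Gata6 was at 42.4, 36.2 and 34.2 CPM in KO10_SL, against 3.28 and 12.3 in TG2A_ESC and 1.56, 0.777 and 0.896 in E14_ESC. The knockout was above wild type in both media without overlap, and the TG2A_ESC libraries were unequal. Its interaction was 1.13 ± 0.9 with TG2A_ESC and -1.74 ± 1.02 with E14_ESC, neither called (edgeR quasi-likelihood, Benjamini-Hochberg adjusted p = 0.578 and 0.23), and with no filter on low counts both were called with opposite signs. Sox17, a further factor of this lineage, averaged 3.0 CPM in KO10_S2iL, 0.206 in TG2A_S2iL, 25 in KO10_SL, 2.98 in TG2A_ESC and 0.227 in E14_ESC, with interactions of 0.75 ± 1.32 with TG2A_ESC and -2.9 ± 1.89 with E14_ESC, neither called. Gata4 averaged 8.93 CPM in KO10_S2iL, 1.45 in TG2A_S2iL, 35 in KO10_SL, 4.0 in TG2A_ESC and 0.702 in E14_ESC, with interactions of -0.51 ± 1.01 with TG2A_ESC and -3.02 ± 1.12 with E14_ESC, neither called.

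Of 10 primitive endoderm transcription factors tested, none agreed, against 1.74% of all genes. Their median interaction was -0.35 with TG2A_ESC and -1.85 with E14_ESC, against 0.01 and 0.07 over all genes. Loss of Ezh2 raised 4 of them with 2i, and 8 without 2i against TG2A_ESC and 8 against E14_ESC. The shares of all genes that rose were 15.7%, 13.6% and 25.8% in these comparisons. With 2i the change of 6 of the 10 factors was not called. Against E14_ESC 1 of them fell, where 22.7% of all genes fell. Of 17 surface and basement membrane genes, 2 agreed, both negative, against 1.74% of all genes, with medians over the list of -0.99 and -1.23. Sparc, a secreted matrix protein, measured 219 and 216 CPM in KO10_S2iL, against 175 and 164 in TG2A_S2iL. In LIF medium Sparc was at 592, 596 and 593 CPM in KO10_SL, against 180 and 214 in TG2A_ESC and 90.6, 87 and 114 in E14_ESC. It rose without Ezh2 in both media without overlap, and its interaction was -1.23 ± 0.16 with TG2A_ESC and -2.25 ± 0.15 with E14_ESC. Serpinh1, a collagen chaperone, averaged 41.7 CPM in KO10_S2iL, 23.7 in TG2A_S2iL, 161 in KO10_SL, 29.1 in TG2A_ESC and 23.6 in E14_ESC. Pdgfra, a receptor found on primitive endoderm, averaged 4.67 CPM in KO10_S2iL, 1.69 in TG2A_S2iL, 24.6 in KO10_SL, 4.47 in TG2A_ESC and 1.13 in E14_ESC, with an interaction of -0.99 ± 0.69 with TG2A_ESC, not called, and -3.04 ± 0.74 with E14_ESC, called. The knockout change of Pdgfra with 2i, 1.46 ± 0.545, was not called. The part of the unequal TG2A_ESC marker levels in these values was not tested.

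**Figure D5:**
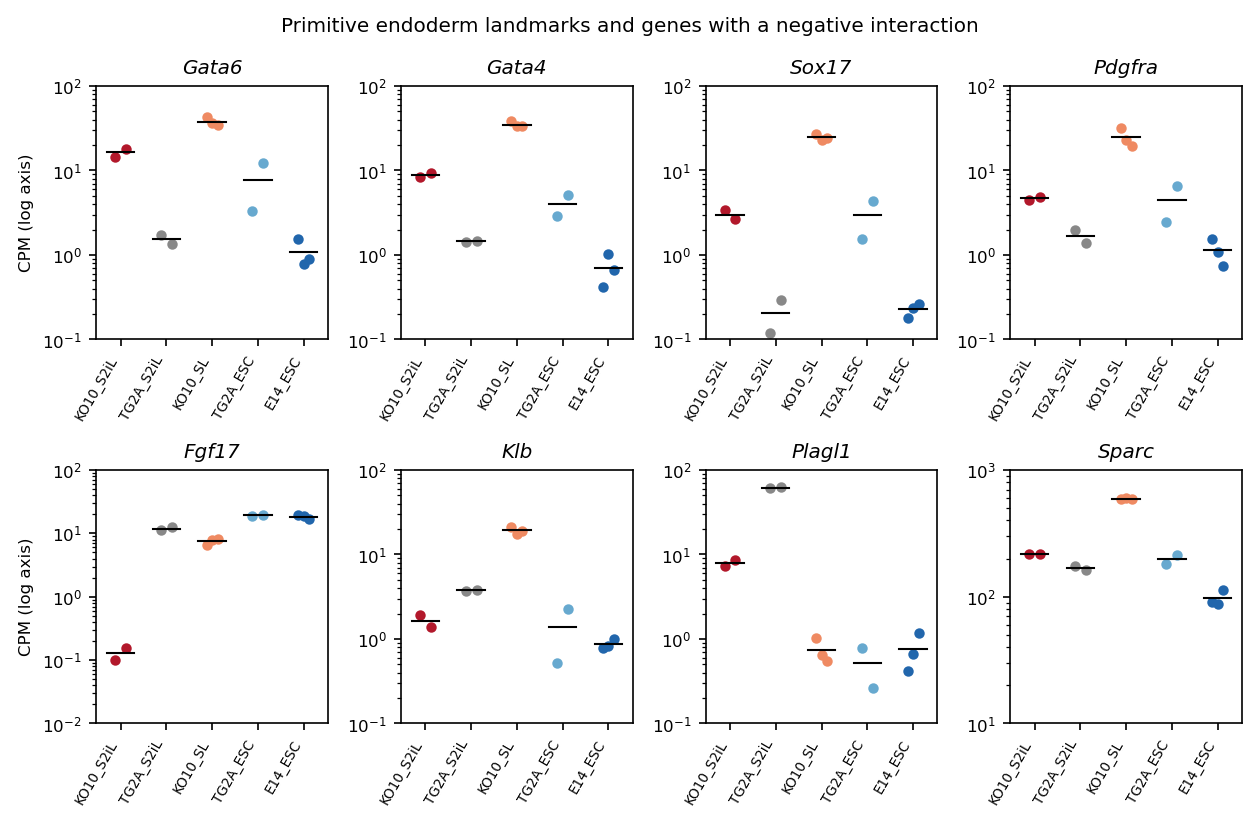
Expression (CPM, log axis) of 4 primitive endoderm landmarks and 4 other genes, with 1 point per library and a line at each group mean. KO10_SL is the highest group for Gata6, Gata4, Sox17, Pdgfra, Klb and Sparc, and KO10_S2iL lies below TG2A_S2iL for Fgf17 and Plagl1.

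Loss of Ezh2 raised 18 of 33 tested Hox genes with 2i, and 27 and 32 without 2i against TG2A_ESC and E14_ESC. Over all genes these shares were 15.7% with 2i, and 13.6% and 25.8% without it. Hoxc11 alone of the Hox genes agreed, against 1.74% of all genes. Their median interaction was -0.92 and -2.12, or -0.71 and -1.69 with groups at or under 3 counts set to that floor, which applied to 17 genes. Of 34 other developmental targets, 19 rose with 2i and 18 and 25 without it, against the same shares of all genes, and Meis2 alone agreed. The median of these was 0.25 and 0.06, or 0.30 and -0.03 with the floor. All 9 tested genes of the two-cell-like state rose without Ezh2 in both media, against those shares of all genes, and none was called in either interaction. Zscan4c, one of them, averaged 96.3 CPM in KO10_S2iL, 3.52 in TG2A_S2iL, 93.1 in KO10_SL, 4.14 in TG2A_ESC and 4.97 in E14_ESC, and is uncertain because near-identical copies can share its reads.

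None of 14 naive pluripotency genes agreed, against 1.74% of all genes, with medians of -0.01 and 0.00. Nanog averaged 464 CPM in KO10_S2iL, 481 in TG2A_S2iL, 415 in KO10_SL, 320 in TG2A_ESC and 320 in E14_ESC, with interactions of -0.43 ± 0.32 with TG2A_ESC and -0.43 ± 0.3 with E14_ESC, neither called, and neither interaction was called for Esrrb or Klf4. The core factors Pou5f1 and Sox2 and the naive marker Zfp42 were called with E14_ESC only, at -0.96 ± 0.25, 0.58 ± 0.19 and -0.67 ± 0.16, against -0.16 ± 0.26, 0.43 ± 0.2 and -0.4 ± 0.17 with TG2A_ESC. With the length trend removed, the values with E14_ESC were -0.72 for Pou5f1 and -0.37 for Zfp42, no longer called, and 0.85 for Sox2, still called. Of 16 ERK response and 13 Wnt response genes none agreed, against the same share of all genes. In wild type, 2i lowered 11 and 8 of the ERK response genes against TG2A_ESC and E14_ESC, where 11.6% and 7.47% of all genes fell. Of the 13 Wnt response genes, 3 rose and 1 fell in each of these comparisons, where 11.7% and 8.99% of all genes rose.

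Of 12 PRC2 subunits, Jarid2 alone agreed, against 1.74% of all genes. Jarid2, an accessory subunit of PRC2, averaged 373 CPM in KO10_S2iL, 302 in TG2A_S2iL, 560 in KO10_SL, 705 in TG2A_ESC and 660 in E14_ESC. Cbx7, a subunit of Polycomb complex PRC1 that also agreed, averaged 68 CPM in KO10_S2iL, 78.9 in TG2A_S2iL, 53.2 in KO10_SL, 103 in TG2A_ESC and 122 in E14_ESC, and its exons overlap Apobec3. Jarid2 and Cbx7 fell without Ezh2 in LIF medium against both wild types, and neither change was called with 2i. Their interactions with TG2A_ESC had adjusted p of 0.048 and 0.0445, near the threshold (edgeR quasi-likelihood, Benjamini-Hochberg). Agreement of both was lost without some single libraries. The interaction of Jarid2 with the length trend removed was 0.51 with TG2A_ESC, against 0.64 before, and no longer called, and 0.1 with E14_ESC, against 0.54 before, and no longer called. The interaction of Cbx7 with the length trend removed was 0.65 with TG2A_ESC, against 0.74 before, and no longer called, and 0.73 with E14_ESC, against 0.99 before, and still called. Of 10 enzymes that oppose Polycomb, 7 were positive with E14_ESC and 0 with TG2A_ESC, against 12.5% and 0.838% of all genes. With the length trend removed 1 was positive and 1 negative with E14_ESC, against 6.82% and 11.8% of all genes. Among 25 imprinted genes, Gab1 and Plagl1 agreed, with opposite signs, against 1.74% of all genes.

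Of the 34 agreeing genes chosen by rule, 11 agreed whichever single library was left out: Sparc, Gab1, Eif4g3, Pam, Fgf17, Bhmt, Dmgdh, Flrt3, Gm48914, Zfp629 and Mctp2. Agreement was lost for 19 genes without KO10_S2iL replicate 1 and 19 without replicate 2, and for 18 and 23 without TG2A_S2iL replicate 1 and 2. It was lost for 5, 11 and 12 without KO10_SL replicates 1, 2 and 3, for 11 and 6 without TG2A_ESC replicates 1 and 2, and for 4, 5 and 2 without E14_ESC replicates 1, 2 and 3.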

How the data were processed

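RNA was sequenced from 22 libraries. The authors deposited a table of estimated counts per gene for 55367 gene symbols, many of them not whole numbers. Reads were trimmed with Trim Galore, aligned with STAR 2.7.6a to mm10 and analysed with DESeq2, per the submitters' processing notes. Not given in the sources used here are the counting tool, the annotation and whether strand was used, and 110 of 306 agreeing genes have exons that overlap another gene. The RNA is labelled polyA, while the protocol in the labels depletes ribosomal RNA.

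The test had been planned for whole counts, so the estimated counts were rounded. Genes passed edgeR's filterByExpr over 10 groups (17547 genes), were scaled by TMM and fitted with edgeR 4.0.16 (quasi-likelihood, 1 coefficient per group, all libraries, 12 residual degrees of freedom) in R 4.3.3. P-values were adjusted by Benjamini-Hochberg over all genes tested, with calls below 0.05. CPM are rounded counts scaled to TMM-adjusted library totals. DESeq2 1.42.0, other filters and scalings, the replicate block, the compared libraries alone, each library left out and a length correction were alternatives. The code was tested on simulated counts.

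Members, lists and rules were chosen with earlier results of these data known. Named genes are landmarks, up to 4 agreeing members of each list, the 12 most positive and 12 most negative agreeing genes (by the smaller absolute interaction, with at least 10 CPM in a group, no predicted models) and the 5 largest with opposite changes. Ctsc and Elf3, neither named by that rule, and Zscan4c were chosen after their values were seen. Some genes that the rule chose are not reported here. Gene positions are from GENCODE M21 (GRCm38), in which 302 of 306 agreeing symbols were found once. RefSeq promoter windows were found for 236 of 306 (77.1%) and for 12459 of the 17547 genes tested. Promoters were not compared over the set, so that check is void.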

Additional observations from a re-analysis of the deposited data

Results flagged for a closer look

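These results are listed because the interaction was called with either or both wild types in LIF medium (edgeR's quasi-likelihood test of the interaction), and no explanation was weighed. The agreeing genes were 128 with a positive and 178 with a negative interaction. Of the named genes with a positive interaction, the values with TG2A_ESC were 0.64 for Jarid2, 0.74 for Cbx7, 1.83 for Gab1, 3.51 for Atp12a, 2.62 for Grhl2, 2.5 for Lncenc1, 2.36 for Cntn2, 1.93 for Arhgef28, 1.93 for Eif4g3, 3.07 for Dmkn, 1.88 for Cgnl1, 1.84 for Pam, 1.68 for Kndc1, 3.92 for Gm48914, 2.81 for Zfp629, 2.43 for Mctp2 and 2.34 for Gm44660 (log2). The negative values with TG2A_ESC were -1.65 for Serpinh1, -1.23 for Sparc, -4.09 for Hoxc11, -2.79 for Meis2, -3.44 for Plagl1, -5.12 for Fgf17, -4.98 for Klb, -3.6 for Bhmt, -2.95 for Rab38, -2.86 for Dmgdh, -2.78 for Cidea, -2.86 for Clu, -2.62 for Slco2a1, -2.51 for Tmem88 and -2.32 for Flrt3. The value for Hoxc11 depends on the prior count. Other values also rest on few counts in a group, among them 5 for Fgf17 in KO10_S2iL, 7 for Dmkn in TG2A_S2iL and 9 for Gm48914 in KO10_SL. These counts are summed over replicates. Called with E14_ESC and not with TG2A_ESC were -3.04 for Pdgfra, -0.96 for Pou5f1, 0.58 for Sox2 and -0.67 for Zfp42. The interaction with E14_ESC sets TG2A cells with 2i against another wild-type set without it. For these genes, medium and wild-type set therefore cannot be told apart. E14_ESC minus TG2A_ESC was called for Pdgfra (-2.04) and Pou5f1 (-0.8), and not for Sox2 (0.15) or Zfp42 (-0.28). With the length trend removed, Pou5f1 and Zfp42 were no longer called with E14_ESC, and Pdgfra and Sox2 still were.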

How the results depend on the processing

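No named value changed direction under any alternative in which it was called. Counts are positive and then negative genes. Without a filter on low counts, 519 and 404 were called with TG2A_ESC and 408 and 321 agreed. A minimum of 1 CPM in a group gave 226 positive calls with TG2A_ESC and 196 positive agreeing genes. The 12 libraries alone gave 973 and 817 with TG2A_ESC, 3463 positive with E14_ESC and 799 and 684 agreeing. DESeq2 gave 488 and 399 with TG2A_ESC and 406 and 348 agreeing. With the length trend removed, 126 were negative with TG2A_ESC, 1196 positive with E14_ESC and 78 and 113 agreed. A minimum absolute interaction of 1 left 73 and 53 agreeing, and a single contrast with the mean of both wild types called 1072 and 1335. Why these counts moved was not tested. RLE scaling and unrounded counts kept every count within 1.5 times the main one.

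Leaving out 1 library gave 25 to 190 positive and 25 to 185 negative agreeing genes, 26 to 203 and 25 to 204 calls with TG2A_ESC, and 1374 to 2401 and 1535 to 2457 with E14_ESC. Of the values of named genes in those fits, 934 kept their side of the threshold and 146 lost the call. Groups of 2 or 3 libraries of 1 clone limit all of these results.

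Replicate numbers did not pair the samples. Deviations of same-numbered libraries correlated at -0.044 to 0.054 between groups. With the replicate block, 81 and 84 were called with TG2A_ESC and 71 and 79 agreed, 148 of them among the original 306.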
